A study of Homo sapiens with 4 samples.

Results

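The miR-99/100 and miR-125 products come from 3 human gene clusters that each hold a miR-99 or miR-100 gene, a let-7 gene and a miR-125 gene. The members described here are 10 mature miRNAs chosen by name, hsa-miR-99a-5p, hsa-miR-99a-3p, hsa-miR-99b-5p, hsa-miR-99b-3p, hsa-miR-100-5p, hsa-miR-125a-5p, hsa-miR-125a-3p, hsa-miR-125b-5p, hsa-miR-125b-1-3p and hsa-miR-125b-2-3p. They are 10 names beside the 1644 miRNA names of the table, and 9 of them had reads. Those 9 were split into 161 isoforms, that is, combinations of a 5p end and a 3p end, of 12689 in all.

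Small RNA was sequenced from HCT116, an established line of human colon carcinoma cells, after transfection with pCDNA3 plasmids, in 1 library for each of 4 conditions. The empty vector library received the plasmid without an insert, and the wild-type, mutant 1 and mutant 2 libraries received plasmids of wild-type pri-miRNAs or of 1 of 2 sets of mutant pri-miRNAs. By the study's methods, the wild-type mixture held pri-mir-30a, pri-mir-142, pri-mir-30d, pri-mir-576, pri-mir-885, pri-mir-128-1, pri-mir-342 and pri-mir-200b, mutant 1 a variant of each and mutant 2 a variant of pri-mir-342 with empty vector, all 3 with pri-mir-16-1 added. No deposited pri-miRNA sequence encodes a miR-99, miR-100 or miR-125 hairpin, so the members were endogenous in every library, and the same 4 libraries give 4 readings of them. No condition had a replicate, so no p-value is given, and all intervals are 95% intervals that cover counting error only.

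The table held between 14544516 and 19834361 miRNA reads per library. Levels are given as RPM, reads per 1000000 reads of the 1608 untransfected miRNA names, those that no deposited pri-miRNA encodes. These reads numbered 13381088 with the empty vector, 12241852 with the wild-type plasmids, 14027145 with mutant 1 and 15134221 with mutant 2. The epithelial miRNAs of the miR-200 and miR-205 families, which mark the cell type of the line, summed to between 22573 and 24670.1 RPM, with 5 of 5 detected. The 3 listed intestinal miRNAs summed to between 1849 and 3069 RPM. Of the lists for other cell types, the blood cell miRNAs reached at most 6.14 RPM, the neuronal ones 1.06 and the liver miRNA 1.23. None of the 3 muscle miRNAs was listed. The mesenchymal miRNAs summed to between 319.7 and 461.5 RPM and the endothelial miR-126 arms to between 3383 and 5214, most of it miR-126-5p.

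A miRNA gene is transcribed as a pri-miRNA, from which Microprocessor cuts a hairpin and DICER then a short duplex. The strand from the 5′ side of the hairpin is the 5p miRNA and the strand from the 3′ side the 3p miRNA. One of them is usually kept in an Argonaute protein and finds its targets through the seed, bases 2 to 8 from its 5′ end, so a shift of the 5p end changes the targets while a shift of the 3p end leaves the seed as it was. The miR-99/100 family is among the oldest animal miRNAs and is known to repress mTOR. The miR-125 family is the vertebrate counterpart of the worm lin-4, and let-7, its neighbour, is the classic differentiation miRNA that opposes LIN28. MIR100HG, the host transcript of miR-100 and miR-125b-1, is known from work on cetuximab resistance in colorectal cancer.

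The mature 5p sequences, shown because the seed groups the members and because a few bases decide how their reads can be told apart, are from RefSeq for GRCh38, with the seed in capitals.
hsa-miR-100-5p: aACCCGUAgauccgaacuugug
hsa-miR-99a-5p: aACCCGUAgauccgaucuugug
hsa-miR-99b-5p: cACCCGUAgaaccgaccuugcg
hsa-miR-125a-5p: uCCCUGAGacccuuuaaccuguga
hsa-miR-125b-5p: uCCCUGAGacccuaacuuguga

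The first 3 share the seed ACCCGUA and the last 2 the seed CCCUGAG. Counted from 1 at the 5′ end, miR-99a-5p differs from miR-100-5p by the single change U16A, and miR-99b-5p differs from miR-100-5p by C1A, A11U, C16A and C21U. The miR-125a-5p and miR-125b-5p sequences are identical over their first 13 bases. The 3p members have other seeds, which are marked in the same way.
hsa-miR-99a-3p: cAAGCUCGcuucuaugggucug
hsa-miR-99b-3p: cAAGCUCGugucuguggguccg
hsa-miR-125a-3p: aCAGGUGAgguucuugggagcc
hsa-miR-125b-1-3p: aCGGGUUAggcucuugggagcu
hsa-miR-125b-2-3p: uCACAAGUcaggcucuugggac

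Among these only miR-99a-3p and miR-99b-3p share a seed, AAGCUCG. All 10 members were found in the RefSeq table.

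The 3 clusters lie on chromosomes 11, 19 and 21 of GRCh38. On chromosome 11, minus strand, miR-100-5p maps to chr11:122152275-122152296, and 52466 nt downstream lies miR-125b-5p of MIR125B1 at chr11:122099809-122099830, with miR-125b-1-3p at chr11:122099769-122099790. Both hairpins and MIRLET7A2 between them lie in introns of MIR100HG, a long noncoding RNA, on its own strand. The chromosome 19 cluster is the compact one, since only 650 nt separate the starts of miR-99b-5p and miR-125a-5p. On the plus strand it holds miR-99b-5p at chr19:51692618-51692639, miR-99b-3p at chr19:51692656-51692677, miR-125a-5p at chr19:51693268-51693291 and miR-125a-3p at chr19:51693306-51693327, with MIRLET7E between the genes. It lies in an intron of the protein-coding gene SPACA6 and overlaps an exon of SPACA6-AS1 on the opposite strand. On chromosome 21, plus strand, miR-99a-5p is at chr21:16539101-16539122 and miR-99a-3p at chr21:16539138-16539159, within an intron of the noncoding MIR99AHG. There the second copy of miR-125b-5p is at chr21:16590253-16590274 and miR-125b-2-3p at chr21:16590290-16590311, where they overlap an exon of MIR99AHG. The miR-125b-5p sequence thus occurs at 2 places of the genome, and each of the other 9 members at 1.

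Most of the reads of the members came from 1 miRNA. Together they made up 5.15% of the untransfected miRNA reads with the empty vector, 4.73% with the wild-type plasmids, 4.10% with mutant 1 and 4.66% with mutant 2. hsa-miR-100-5p had 518914 reads with the empty vector, 426762 with the wild-type plasmids, 412609 with mutant 1 and 515069 with mutant 2. These counts are 38779.7, 34861, 29415 and 34033 RPM, which gave it rank 5 or 6 among the untransfected miRNAs in every library. For scale, miR-21-5p, the most abundant untransfected miRNA, ranged from 214063 to 247159 RPM.

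Next came hsa-miR-99b-5p with 123317, 105974, 110712 and 134006 reads in the same order of libraries. At 9216, 8657, 7893 and 8855 RPM it stood between ranks 22 and 24. hsa-miR-125a-5p had 35677, 35221, 41667 and 44408 reads, or 2666, 2877, 2970 and 2934 RPM, and stood at rank 41 or 42. These 3 guide strands, the strands that are retained and act on targets, were each separated from the next by more than their spread over the libraries. miR-100-5p had between 3.73 and 4.21 times the reads of miR-99b-5p, and miR-99b-5p between 2.66 and 3.46 times those of miR-125a-5p.

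The other members were 3p strands or products with few assigned reads. hsa-miR-125b-1-3p had 8101, 8364, 7514 and 8607 reads, or 605.4, 683.2, 535.7 and 568.7 RPM. hsa-miR-99b-3p had 1827, 1908, 1515 and 2159 reads, or 136.5, 155.9, 108 and 142.7 RPM. hsa-miR-125b-5p had 593, 504, 672 and 679 reads, or 44.3, 41.2, 47.9 and 44.9 RPM. hsa-miR-125a-3p had 539, 496, 483 and 640 reads, or 40.3, 40.5, 34.4 and 42.3 RPM. These last 2 were the only neighbours in the order whose ranges overlapped, and the place of miR-125b-5p in it depends on how its reads were assigned, as described below.

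The 3 members specific to chromosome 21 had the fewest reads. hsa-miR-99a-5p had 45, 44, 41 and 43 reads, or 3.36, 3.59, 2.92 and 2.84 RPM. hsa-miR-125b-2-3p had 8, 13, 10 and 18 reads, or 0.598, 1.06, 0.713 and 1.19 RPM. hsa-miR-99a-3p was listed in none of the libraries, and the floor used for such a count of 0, a one-sided limit of 3 reads, lies between 0.198 and 0.245 RPM.

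Within the miR-99/100 seed family, 1 paralog supplied most of the reads. For the miR-99/100 seed the family summed to 47999, 43521, 37311 and 42891 RPM. miR-100-5p made up 80.8% of it with the empty vector, 80.1% with the wild-type plasmids, 78.8% with mutant 1 and 79.4% with mutant 2, and miR-99b-5p made up between 19.2% and 21.1%. For the miR-125 seed, miR-125a-5p made up between 98.4% and 98.6% of the assigned reads. That share depends on how reads of miR-125b-5p were assigned and does not show which paralog was more abundant.

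The reads of miR-99a-5p were also set against those of miR-100-5p. For each 100000 reads of miR-100-5p, from which it differs at 1 base, there were 8.67 reads of miR-99a-5p with the empty vector, with an interval of 6.47 to 11.6. There were 10.3 with the wild-type plasmids, 9.94 with mutant 1 and 8.35 with mutant 2, and the intervals of all 4 overlap, being wide at these counts. Whether misread bases of miR-100-5p contribute to this count was not tested.

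The miR-125b-5p count has a peculiarity of its own. Its 2 largest isoforms start at the annotated 5p end and end either at the annotated 3p end or 1 nt beyond it. The row at the annotated end held 272, 239, 326 and 322 reads, and the row 1 nt longer held 271, 241, 325 and 325, so the 2 rows nearly repeat each other in every library. The rows that start 1 nt downstream did the same, with 18, 7, 6 and 9 reads against 17, 7, 6 and 9. No read ended short of the annotated 3p end in any library, whereas the other 6 members with a mean of at least 50 reads all had such ends. The first base after the annotated end is u at MIR125B1 and g at MIR125B2, so only reads that extend past the annotated end differ between the 2 loci, and the authors kept unambiguous reads. Top rows that agreed within 5% in all 4 libraries and lay 1 nt apart at the 3p end were found for 5 of 18 miRNAs with 2 or more RefSeq loci and for 1 of 408 with 1 RefSeq locus. The 5 were miR-125b-5p, let-7f-5p, miR-181b-5p, miR-196a-5p and miR-29b-3p and the 1 was miR-101-3p, all named here after their values were seen. The criterion was set after the miR-125b-5p rows were seen, so their inclusion is no test of it. No read short of the annotated 3p end was seen for 8 of those 18, miR-125b-5p among them, and for 9 of those 408. The cause of the repeated rows and of the missing short reads was not tested. Because the rows repeat each other, the miR-125b-5p values are given as counts of the reads assigned, not as levels that can be set beside those of other miRNAs.

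Read counts were next compared between neighbours of 1 cluster, where ratios within a library do not depend on scaling. On chromosome 19 the order of the 5p strands followed the order of the genes, with miR-99b-5p highest, let-7e-5p next and miR-125a-5p lowest. let-7e-5p had 56312, 46554, 45428 and 58485 reads, or 4208, 3803, 3239 and 3864 RPM. The ratio of let-7e-5p to miR-99b-5p was 0.457 with the empty vector (0.452 to 0.461), 0.439 with the wild-type plasmids, 0.410 with mutant 1 (0.406 to 0.415) and 0.436 with mutant 2. The ratio of let-7e-5p to miR-125a-5p was more variable, at 1.58 (1.56 to 1.60), 1.32 (1.30 to 1.34), 1.09 (1.08 to 1.10) and 1.32 (1.30 to 1.33). In the mutant 1 library these neighbours were thus nearest to equal.

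The 3p strands of the same cluster were scarce. miR-99b-3p had between 3.14 and 3.85 times the reads of miR-125a-3p. The latter had between 2.503 and 2.71 times those of let-7e-3p, which had 213, 183, 193 and 249 reads.

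On chromosome 11, miR-100-5p outnumbered miR-125b-1-3p by 64.1-fold with the empty vector, 51.0-fold with the wild-type plasmids, 54.9-fold with mutant 1 and 59.8-fold with mutant 2. The 3p strand of miR-100, miR-100-3p, is not among the members but shares the hairpin of miR-100-5p. It had 14799, 13132, 13327 and 15913 reads, between 1.57 and 1.85 times those of miR-125b-1-3p. The let-7a-2-3p strand from the gene between them had 288, 299, 435 and 434 reads. The ratio of miR-125b-1-3p to let-7a-2-3p was 28.1 (25.01 to 31.6) with the empty vector, 27.97 (24.9 to 31.4) with the wild-type plasmids, 17.3 (15.7 to 19.03) with mutant 1 and 19.8 (18.01 to 21.8) with mutant 2.

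On chromosome 21, let-7c-5p had 246, 203, 219 and 288 reads, while let-7c-3p was not listed. The 3p strands that tell the 2 miR-125b loci apart differed widely, since miR-125b-1-3p had 1013 times the reads of miR-125b-2-3p with the empty vector (506 to 2026), 643 times with the wild-type plasmids, 751 times with mutant 1 and 478 times with mutant 2 (301 to 759).

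The share of the 5p arm shows which strand of a hairpin was recovered. The hairpins are given from RefSeq, with the mature 5p and 3p sequences in capitals.
MIR100: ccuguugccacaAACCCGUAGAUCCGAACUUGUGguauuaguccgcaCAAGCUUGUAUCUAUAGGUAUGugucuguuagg
MIR99B: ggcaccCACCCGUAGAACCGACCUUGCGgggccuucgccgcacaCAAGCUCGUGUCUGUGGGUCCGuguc
MIR125A: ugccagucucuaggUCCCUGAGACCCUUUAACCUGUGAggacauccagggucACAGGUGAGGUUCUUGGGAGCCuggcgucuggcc
MIR125B1: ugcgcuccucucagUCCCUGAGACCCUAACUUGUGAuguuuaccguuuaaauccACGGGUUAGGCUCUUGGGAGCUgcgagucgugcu

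In MIR100, MIR99B and MIR125A the 5p strand took nearly all reads. The 5p share of MIR100 was 97.2%, 97.0%, 96.9% and 97.0% in the order empty vector, wild type, mutant 1 and mutant 2. That of MIR99B was 98.5%, 98.2%, 98.7% and 98.4%. That of MIR125A was 98.5%, 98.6%, 98.9% and 98.6%. Intervals that lay apart from all others were those of MIR100 with the empty vector (97.18 to 97.27%) and with mutant 1 (96.82 to 96.92%), of MIR99B with the wild-type plasmids (98.15 to 98.31%) and of MIR125A with mutant 1 (98.75 to 98.95%). For MIR99B those of mutant 1 and mutant 2 were also apart from each other. Across the 250 untransfected hairpins with both arms listed and a mean of at least 50 reads for the arms together, the median 5p share was 64.2%. In this ranking, pooled over the libraries, 60 hairpins were above MIR100, 48 above MIR99B and 47 above MIR125A.

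For the miR-125b hairpins the assigned reads give no arm preference that can be read like the others. The 5p reads made up 6.81% of all miR-125b reads with the empty vector, 5.67% with the wild-type plasmids, 8.20% with mutant 1 and 7.30% with mutant 2, with miR-125b-5p set against both 3p strands. With the row 1 nt past the 3p end left out, an alternative chosen after seeing the data, the share with the empty vector was 3.56%. Reads of miR-125b-5p that end at or before its annotated 3p end are the same at both loci, while the 3p strands differ between them, and the part of this in the share was not tested.

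The question for the members between libraries is whether transfection of unrelated pri-miRNAs moved them. Of the 7 members with a mean of at least 50 reads, none changed by more than 2-fold or by more than 1.5-fold in any of the 4 comparisons, 3 of which share the empty vector library. Among the 476 untransfected miRNAs that averaged 50 reads or more, 1.89% were past 2-fold and 10.9% past 1.5-fold for the wild-type over the empty vector library. Between mutant 1 and the empty vector the shares were 3.99% and 21.2%, between mutant 2 and the empty vector 1.68% and 9.45%, and between mutant 1 and wild type 2.31% and 15.8%. These counts depend on the scaling. By all miRNA reads, 4 of 7 were past 1.5-fold for mutant 1 over the empty vector, beside 38.7% of all 476, and by miR-16-5p 4, 5 and 7 of 7 were past 2-fold for wild type, mutant 1 and mutant 2, beside 43.7%, 57.1% and 78.8% of all 476. The median log2 ratio of the 7 members was 0.01 for wild type, -0.22 for mutant 1 and 0.02 for mutant 2 over the empty vector, beside 0.09, -0.02 and 0.06 for all 476. For mutant 1 over wild type it was -0.23, beside -0.15. With a minimum mean of 10 reads, miR-125b-2-3p, with 8 to 18 reads, was past 1.5-fold for wild type and for mutant 2 over the empty vector, at log2 ratios of 0.83 and 0.99, and both intervals of its ratio (0.736 to 4.29 and 0.865 to 4.58) include 1. At that minimum 1 of 9 members stands beside 21.6% and 19.9% of 777 miRNAs past 1.5-fold in these comparisons.

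In the mutant 1 library miR-100-5p and miR-99b-5p stood below their empty vector levels and miR-125a-5p above its own. Over the empty vector the miR-100-5p ratio was 0.758 (0.755 to 0.762), a log2 ratio of -0.40, and the miR-99b-5p ratio was 0.856 (0.850 to 0.863), a log2 ratio of -0.22. The miR-125a-5p ratio was 1.11 (1.10 to 1.13), a log2 ratio of 0.16 that became -0.22 when the libraries were scaled by all miRNA reads and -0.90 when they were scaled by miR-16-5p. The latter, which the study used to normalize, is encoded by a plasmid in 3 of the 4 libraries and stood at 16944, 34753, 35128 and 41556 RPM. The same split was present in smaller size for mutant 2, with log2 ratios of -0.19 for miR-100-5p, -0.06 for miR-99b-5p and 0.14 for miR-125a-5p, and for wild type, with -0.15, -0.09 and 0.11. Under scaling by miR-16-5p all of these are below 0, and under scaling by all miRNA reads the 0.11 becomes -0.27. The same 0.11 of miR-125a-5p becomes 0.01 under scaling by edgeR TMM and 0.004 under DESeq2 median of ratios. These 3 comparisons share the empty vector library, so their splits are not independent of each other. The ratio of miR-99b-5p to miR-125a-5p, which needs no scaling, was 3.46 (3.42 to 3.50) with the empty vector, 3.01 (2.97 to 3.05) with the wild-type plasmids, 2.66 (2.63 to 2.69) with mutant 1 and 3.02 (2.98 to 3.05) with mutant 2. The wild-type and mutant 2 intervals overlap each other and lie apart from the other 2, but the spread between replicate transfections is not known.

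Among the 3p members with a mean of at least 50 reads, miR-99b-3p had the ratio farthest from 1, with a log2 ratio of -0.53 for mutant 1 over wild type, a ratio of 0.693 (0.648 to 0.741). miR-125b-1-3p had a log2 ratio of -0.35 in the same comparison, and miR-125a-3p one of -0.23. For miR-125b-5p it was 0.22, with no interval given because its rows repeat each other.

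The miRNAs whose level over the 4 libraries was most like that of each guide strand were found by the root mean square difference of centred log2 levels among 469 other untransfected miRNAs. For miR-100-5p these were let-7g-5p (0.021), miR-643 (0.023) and let-7e-5p (0.025). For miR-99b-5p they were miR-100-3p (0.023), miR-151a-3p (0.026) and let-7a-3p (0.028), and for miR-125a-5p they were miR-186-5p (0.018), miR-580-3p (0.024) and miR-194-5p (0.029). With 4 libraries such likeness is common, as 70, 75 and 84 miRNAs lay within 0.1 of the 3 guide strands. Some of those named had few reads, with miR-643 between 4.776 and 6.203 RPM, let-7a-3p between 3.565 and 4.036 and miR-580-3p between 9.865 and 10.98. The part of counting error in their likeness was not tested.

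The 5p end, which sets the seed, was sharp for the guide strands. Reads that start at the annotated 5p end made up between 98.6% and 98.8% of miR-100-5p, between 98.1% and 98.4% of miR-99b-5p and between 99.5% and 99.6% of miR-125a-5p. The median over the 476 untransfected miRNAs was between 95.6% and 95.8%. Pooled over libraries, 422 of the 476 had a lower share than miR-125a-5p, 328 a lower share than miR-100-5p and 301 a lower share than miR-99b-5p. Upstream starts were nearly absent from these strands, with no read of miR-125a-5p in any library.

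The 3p strands of the miR-125 genes had less uniform starts. For miR-125a-3p, 19.9% of the reads with the empty vector (16.7 to 23.4%), 21.8% with the wild-type plasmids, 16.8% with mutant 1 (13.7 to 20.4%) and 21.6% with mutant 2 started downstream of the annotated 5p end, nearly all by 1 nt. The 4 intervals overlap. The annotated form and the shifted one are shown with the seed of each in capitals.
miR-125a-3p, annotated start: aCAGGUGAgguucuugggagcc
miR-125a-3p, start shifted by 1 nt: cAGGUGAGguucuugggagcc

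Of all 476 miRNAs, 131 had a lower share of reads at the annotated start than miR-125a-3p. For miR-125b-1-3p, between 2.21% and 2.90% of reads started upstream. The few reads of miR-125b-2-3p mostly began 2 nt downstream of the annotated start, with 8 of 8 with the empty vector, 10 of 13 with the wild-type plasmids, 10 of 10 with mutant 1 and 17 of 18 with mutant 2. Its largest isoform over the 4 libraries together, with 4, 2, 8 and 11 reads, therefore has another seed than the annotated form.
miR-125b-2-3p, annotated form: uCACAAGUcaggcucuugggac
miR-125b-2-3p, largest isoform: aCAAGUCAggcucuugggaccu

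For miR-125b-5p, 7.93% of reads started downstream with the empty vector, against 3.57%, 1.93% and 3.09% in the others. These are 47, 18, 13 and 21 reads, of which many are the repeated rows described above.

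**Figure D1:**
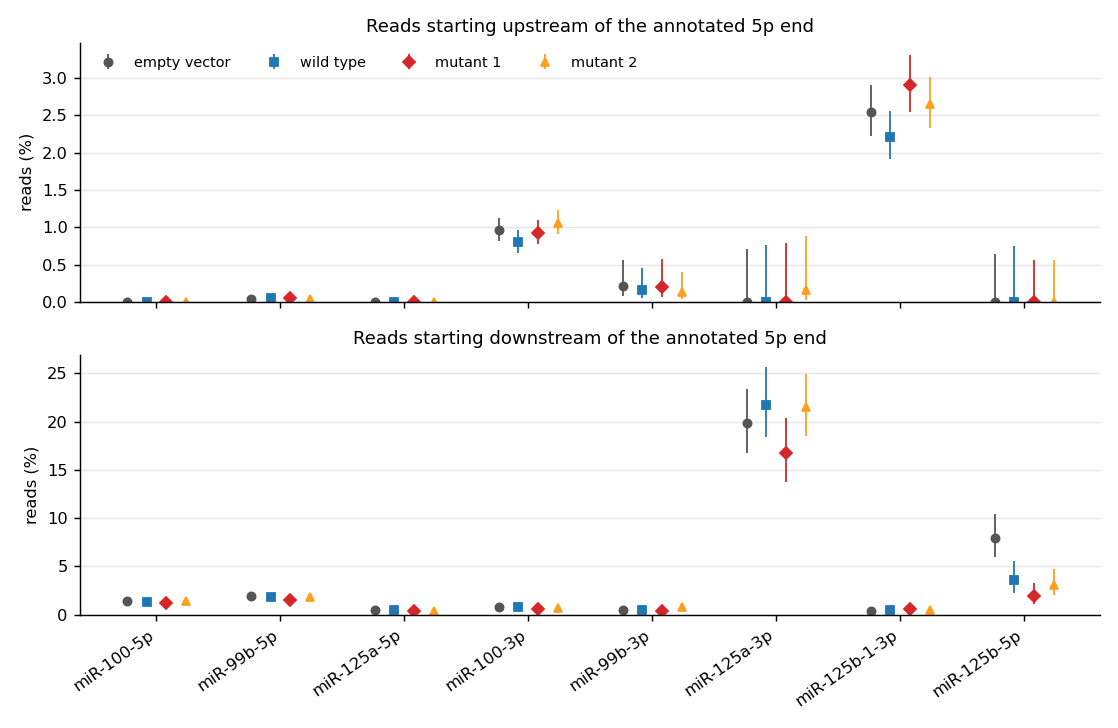
Share of reads that start upstream (top) or downstream (bottom) of the annotated 5p end, in percent of the reads of each miRNA, by library. Points are single libraries with Wilson 95% intervals, which for miR-125b-5p count the repeated rows as separate reads. Of the 8 miRNAs drawn, which are miR-100, miR-99b and miR-125a with both arms, miR-125b-5p and miR-125b-1-3p, miR-125a-3p has the largest downstream share and miR-125b-1-3p the largest upstream share.

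The 3p end varied far more, and each miRNA had its own pattern. The 4 most abundant isoforms of miR-100-5p are shown as the genome gives them, with the seed, which is the same in all, in capitals. The authors allowed mismatches at the 3p end, so the last bases of the reads need not be these.
miR-100-5p, annotated 3p end: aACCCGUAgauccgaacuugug
miR-100-5p, 1 nt short: aACCCGUAgauccgaacuugu
miR-100-5p, 2 nt short: aACCCGUAgauccgaacuug
miR-100-5p, 1 nt longer: aACCCGUAgauccgaacuugugg

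The annotated form made up 63.5% of miR-100-5p reads with the empty vector, 64.4% with the wild-type plasmids, 67.0% with mutant 1 and 65.8% with mutant 2. Reads that ended short of the annotated end, whatever their start, made up 29.1% (29.0 to 29.3%) with the empty vector, 28.1% (27.9 to 28.2%) with the wild-type plasmids, 23% (22.9 to 23.1%) with mutant 1 and 25.7% (25.6 to 25.8%) with mutant 2. Longer reads made up 6.66%, 6.90%, 9.49% and 7.87%. The mutant 1 library thus had the lowest share of short and the highest share of longer reads of this miRNA.

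The same order was seen for its paralog. Of the miR-99b-5p reads, 30.1% (29.9 to 30.4%) were short with the empty vector, 29.5% (29.2 to 29.8%) with the wild-type plasmids, 23.1% (22.9 to 23.4%) with mutant 1 and 27.5% (27.2 to 27.7%) with mutant 2. Most of these lacked 1 nt, and longer reads stayed at or below 0.0370% in every library, so that miR-99b-5p had almost no longer form while its seed partner had one.

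The guide strand of MIR125A did not follow that order. Short reads of miR-125a-5p made up 34.2% (33.8 to 34.7%), 37.8% (37.3 to 38.3%), 36.2% (35.7 to 36.6%) and 37.8% (37.4 to 38.3%). The empty vector library was the lowest for this miRNA and the mutant 1 library lay between it and the others. Its shorter forms lost 1, 2 or 3 nt, as the sequences show.
miR-125a-5p, annotated 3p end: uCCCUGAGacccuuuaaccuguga
miR-125a-5p, 1 nt short: uCCCUGAGacccuuuaaccugug
miR-125a-5p, 2 nt short: uCCCUGAGacccuuuaaccugu
miR-125a-5p, 3 nt short: uCCCUGAGacccuuuaaccug

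The form 1 nt short held between 21.8% and 25.1% of miR-125a-5p reads, the form 2 nt short between 9.39% and 10.1% and the form 3 nt short between 2.55% and 2.84%.

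The 3p strands each had another pattern. For miR-125b-1-3p, 18.6%, 20.6%, 16.9% and 19.2% of reads were short, and 14.0%, 15.1%, 12.02% and 13.4% lacked exactly 2 nt, more than lacked 1 nt. For miR-99b-3p, short reads made up 30.7%, 26.05%, 22.9% and 27.2%, and longer ones 17.7%, 22.3%, 23.6% and 20.8%, the largest longer share of the members other than the 2 miR-125b miRNAs described above. For miR-125a-3p, 22.8%, 20.6%, 15.3% and 19.1% were short. In all 3 of them the mutant 1 library had the lowest share of short reads, although not always apart from the next. For miR-125a-3p its interval (12.4 to 18.8%) overlapped those of the wild-type (17.2 to 24.3%) and mutant 2 (16.2 to 22.3%) libraries, for miR-99b-3p (20.9 to 25.1%) that of the wild-type library (24.1 to 28.1%), and for miR-125b-1-3p its upper limit of 17.8% met the lower limit with the empty vector.

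**Figure D2:**
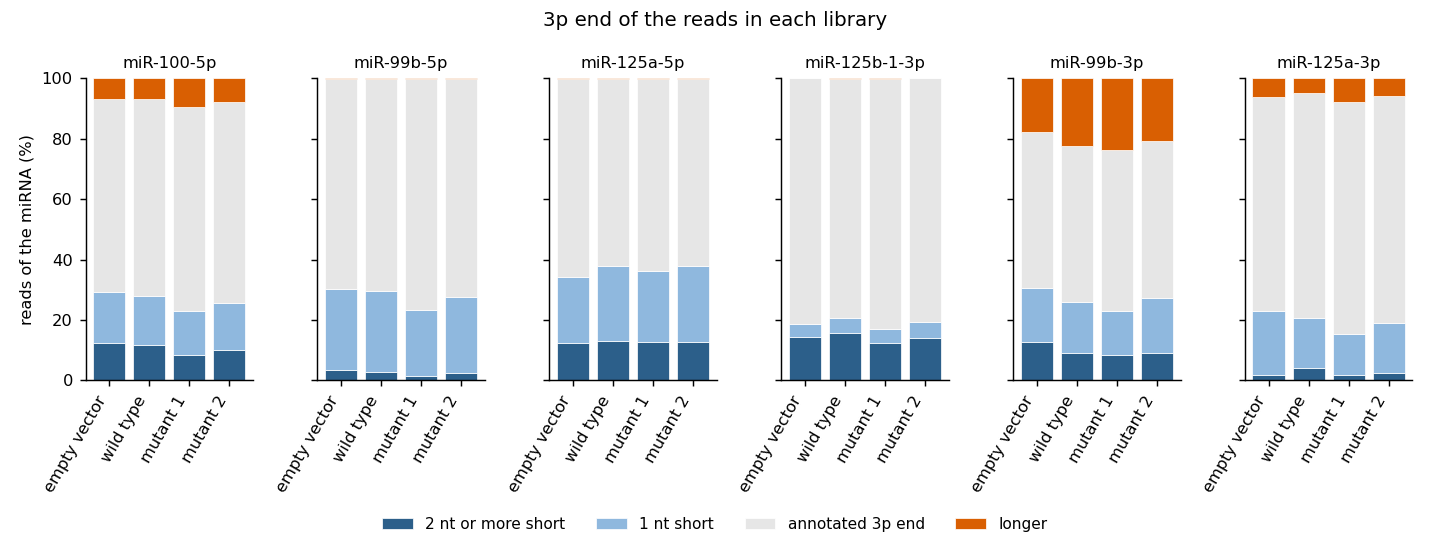
Share of the reads of each miRNA, in percent, that end 2 nt or more short of the annotated 3p end, 1 nt short, at it or beyond it, as stacked bars, 1 bar per library. For miR-100-5p and miR-99b-5p the blue short fraction is smallest in the mutant 1 library (23% and 23.1%), while for miR-125a-5p it is smallest with the empty vector (34.2%).

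A lower share of short reads with mutant 1 was also common among the other miRNAs. Between mutant 1 and the empty vector, 5 of the 7 members had a lower share of short reads, as had 68.9% of the untransfected miRNAs, and between mutant 1 and wild type it was 6 of 7 beside 71.2%. Between wild type and the empty vector it was 4 of 7 beside 47.9%, and between mutant 2 and the empty vector 4 of 7 beside 58.7%. The median change of the members was -6.14 percentage points beside -1.44 over all untransfected miRNAs for mutant 1 over the empty vector, -3.65 beside -1.44 for mutant 1 over wild type, -2.65 beside -0.315 for mutant 2 over the empty vector and -0.628 beside 0 for wild type over the empty vector. The members other than miR-125b-5p also started from larger shares, between 18.6% and 34.2% with the empty vector, beside a median of 16.2% over all untransfected miRNAs, and the difference between the medians was not tested. The members counted include miR-125b-5p, which had no short read in any library.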

How the data were processed

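Small RNA of HCT116 cells was sequenced in 1 library per condition. Per the study's methods, the authors trimmed adapters with cutadapt, kept reads of 18 to 26 nt with a quality of 20 in at least 90% of bases, aligned them to hg38 with Bowtie2 (versions not given in the sources used here) and kept unambiguous reads with mismatches only at the 3p end at miRBase 22 loci. The deposited values are raw counts of reads per isoform, without normalization. A second file of plasmid sequences served only to list the transfected miRNAs. Reads were not realigned, so these filters are part of every value.

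Isoform counts were added per miRNA and divided by the reads of untransfected miRNAs. In the file the 3p offset counts inwards: read so, all 10981 isoforms with a RefSeq length are 18 to 26 nt long, against 1707 outside that range if read outwards. Positive 3p offsets are given here as longer. Intervals at 95% are Poisson for counts, Wilson for shares and normal on the log scale for ratios. PCR reads without molecular identifiers are not independent molecules, so the intervals are lower limits of the error. No step converted reads into molecules, so ratios between different miRNAs or arms are ratios of reads. Ratios between libraries were taken for miRNAs that averaged 50 reads or more. Sequences came from RefSeq (GRCh38) and host genes from GENCODE 44. The genes named were the 10 members, miR-100-3p, the let-7 products of the clusters, miR-16-5p, the 3 miRNAs most alike each of the 3 most abundant members, and the most abundant miRNA, besides miRNAs named for cell type markers and, after their values were seen, those with paired rows. Members and lists were chosen with earlier results of these data known. Alternatives were scaling by miR-16-5p, by all miRNA reads, by edgeR 4.0.16 TMM or by DESeq2 1.42.0 median of ratios (R 4.3.3), minimums of 10 or 200 reads, reads at the annotated or most frequent 5p end, isoforms with 10 reads or more and, chosen after seeing the data, the paired rows of miR-125b-5p counted once. The scripts used Python 3.11.15, pandas 2.3.3, numpy 2.4.6, scipy 1.17.1 and matplotlib 3.10.9 and were tested on simulated data.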

Additional observations from a re-analysis of the deposited data

How the results depend on the processing

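Scaling decided the ratios between libraries. Scaled by miR-16-5p, which 3 of the 4 libraries received on a plasmid, 4 of 7 members were past 2-fold for wild type, 5 for mutant 1 and 7 for mutant 2 over the empty vector, each of them lower, and 43.7%, 57.1% and 78.8% of all untransfected miRNAs were past 2-fold. That scaling moved the median log2 ratio of all untransfected miRNAs to -0.95, -1.07 and -1.24, and scaling by all miRNA reads moved it to -0.30, -0.40 and -0.001. For mutant 1 over wild type no member was past 2-fold under any alternative. Of 112 log2 ratios of members under the 4 other scalings, 90 kept their sign and 16 were past 2-fold, all 16 of them under scaling by miR-16-5p. The minimums of 10 and 200 reads move no ratio, but that of 10 brings in miR-99a-5p and miR-125b-2-3p, the latter past 1.5-fold for wild type and mutant 2 over the empty vector, as were 21.6% and 19.9% of 777 miRNAs. miR-100-5p stayed below 0 in all 4 comparisons under every scaling, while miR-99b-5p for mutant 1 over wild type went from -0.13 to 0.02 under median of ratios. The 5p share of MIR125A with the empty vector was 98.8% with reads at the annotated 5p end, and 98.8% with reads at the most frequent one, against 98.5%. That of the miR-125b hairpins fell from 6.81% to 3.56% with the paired rows counted once. No paired analysis was possible because each condition had 1 library, and no library could be left out for the same reason. Depth limits miR-99a-3p to an upper bound, and shares of miR-125b-2-3p rest on at most 18 reads.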
